A study of Mus musculus with 2 samples.

Results

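The genes that make, attach and remove O-GlcNAc were compared between mouse E14 embryonic stem cells (ESCs) and E14-Sox2TA/WT cells by RNA-seq. They were the 10 rows of the deposited gene table (24532 rows in all) named Gfpt1, Gfpt2, Gnpnat1, Pgm3, Uap1, Uap1l1, Nagk, Ogt, Mgea5 and Hcfc1. These were taken by symbol as known enzymes of the pathway, the Uap1 paralog Uap1l1 and a partner of Ogt. E14 is an established mouse ESC line with wild-type Sox2, and per the study's methods its medium held serum and leukemia inhibitory factor (LIF). E14-Sox2TA/WT is a clone of E14 with the T258A change in 1 allele of Sox2, made with CRISPR/Cas9; per the same methods it was isolated and normally kept with added inhibitors of Mek and Gsk3, which were withdrawn before use. Genotype, clone and culture history cannot be told apart, and each genotype had 1 library, so differences between cultures could not be estimated and p-values are left out.

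The hexosamine pathway branches off glycolysis at fructose phosphate and draws on glutamine, acetyl-CoA and uridine nucleotide to make UDP-GlcNAc, the activated sugar that cells use for glycans of many kinds. Ogt transfers the sugar from UDP-GlcNAc to hydroxyl groups of proteins inside the cell, where it remains unextended and is called O-GlcNAc. Mgea5 encodes Oga, the hydrolase that takes it off again, so that the modification cycles. In ESCs the modification is known on core pluripotency factors, among them Sox2. The comparison asked whether the transcripts of this machinery differed in cells in which one of the acceptor sites on Sox2 had been removed.

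The acceptor site is shown first because its loss defines the mutant. In GRCm38 (the mm10 build) codon 258 of Sox2 lies in the coding sequence of the single exon, at chr3:34651187-34651189 on the plus strand. The reference sequence of chr3:34651172-34651204 is printed below with codon 258, which encodes threonine, in capitals. The expression table cannot show the edit itself.
Sox2 codon 258: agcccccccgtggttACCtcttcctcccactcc

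Promoter windows were available for 8 of the 10 genes in the RefSeq table of GRCm38.p6, from 250 bases before to 50 bases after each start, in 9 windows because Ogt has a pair of overlapping ones. Both strands were searched for 6 short motifs. The Sox core CATTGT was found in 0 of the 9 windows (12.6% of all 32851 windows), the C/EBP-ATF composite TGATGNAA in 0 (3.97% of all) and the Zfp143 and Thap11 core ACTACA in 0 (10.3%). The cAMP response element TGACGT was found in 1 window, that of Uap1 (7.51% of all), and the CCAAT box in 4, those of Gfpt1, Gfpt2, Pgm3 and Uap1 (37.4%). The GC box GGGCGG was found in 9 of 9 windows (35.7% of all). These matches describe letters in the windows and not binding, and a missing motif says only that its letters are absent from the window. The stretches upstream of every annotated start are printed for Ogt (chrX:101639801-101640010, plus strand), Gfpt1 (chr6:87042596-87042845, plus strand) and Gfpt2 (chr11:49793905-49794154, plus strand), the enzyme that attaches the sugar and the paralogs at the entry of the pathway, chosen after their values were seen. Capitals mark the GC box or its reverse complement, and in Gfpt1 a pair of boxes shares 1 base.
Ogt: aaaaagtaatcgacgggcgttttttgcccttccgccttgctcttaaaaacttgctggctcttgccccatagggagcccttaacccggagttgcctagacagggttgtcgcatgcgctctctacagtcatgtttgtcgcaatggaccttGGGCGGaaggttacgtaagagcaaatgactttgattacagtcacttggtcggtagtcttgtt
Gfpt1: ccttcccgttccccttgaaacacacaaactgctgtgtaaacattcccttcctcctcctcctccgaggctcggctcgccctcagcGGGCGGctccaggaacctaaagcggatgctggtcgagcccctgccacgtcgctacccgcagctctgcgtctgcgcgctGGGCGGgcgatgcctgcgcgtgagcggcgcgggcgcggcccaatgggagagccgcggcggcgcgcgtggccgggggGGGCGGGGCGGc
Gfpt2: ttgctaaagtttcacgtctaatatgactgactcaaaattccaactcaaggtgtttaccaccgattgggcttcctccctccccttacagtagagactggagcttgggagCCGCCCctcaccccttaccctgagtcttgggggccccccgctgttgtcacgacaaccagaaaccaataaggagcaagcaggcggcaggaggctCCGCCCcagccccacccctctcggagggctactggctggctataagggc

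The libraries held 60263536 counted reads in E14 and 44609228 in E14-Sox2TA/WT cells, and the 10 genes together took 0.127% and 0.136% of them. Expression is given as TPM (transcript abundance per unit of total transcripts), a level scaled to transcript length and library. All 10 ESC markers examined reached a TPM of 10 in both libraries, with levels from 84.9 to 6877 in E14 and from 129 to 4429 in E14-Sox2TA/WT cells. Their summed TPM was 12208 in E14 and 9276 in E14-Sox2TA/WT cells. The summed TPM of 8 fibroblast markers was 49.5 in E14 and 18.2 in E14-Sox2TA/WT cells, with Postn, Dcn and Lum without a read in either library. It was 46.9 and 17.4 for 8 primitive endoderm markers (Afp without a read in either), 90.9 and 120 for 6 neural markers, and 5.99 and 37.1 for 6 mesendoderm markers. Single genes weigh heavily in these sums. The highest fibroblast marker level was 40.1 in E14 and 11.4 in E14-Sox2TA/WT cells. The highest neural marker level was 77.3 and 65.8, lower in E14-Sox2TA/WT cells although the neural sum was higher. The part of such differences in the values below was not tested.

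All 10 genes were expressed in both libraries, with a TPM from 13.9 to 142 and between 391 and 24406 reads per gene and library. Gene spans below are those of RefSeq in GRCm38, and exon counts are those of a GENCODE transcript. None of the 10 differed more than 2-fold, where 8.24% of the 9094 genes that reached a TPM of 10 in 1 library or both did (4.17% higher and 4.07% lower in E14-Sox2TA/WT cells). By TPM, Hcfc1 alone differed more than 1.5-fold, as did 24.7% of the 9094 genes. Hcfc1 was short of 1.5-fold under each of 6 other scalings described below (log2 ratios of 0.33 to 0.57), and with a trend on GC content and length removed Gfpt1 (-0.67) was past it instead. The TPM was higher in E14-Sox2TA/WT cells for Hcfc1, Ogt, Gnpnat1, Gfpt2 and Mgea5, and lower for Uap1l1, Gfpt1, Uap1, Pgm3 and Nagk, and it was lower for 42.7% of the 9094 genes. The median log2 ratio of the 10 genes (E14-Sox2TA/WT over E14) was -0.05, beside 0.08 over the 9094 genes, and the median size of the log2 ratio was 0.22 beside 0.32.

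A 95% counting interval was attached to each ratio from the reads by the exact Clopper-Pearson method. Such intervals describe counting error alone, because they are formed from the reads of 1 library per genotype. Where PCR copies of 1 molecule were counted as separate reads, the intervals are too narrow even for counting error. The interval excluded no change for 9 of the 10 genes, all except Nagk, with 5 higher and 4 lower. It did so for 85.4% of the 9094 genes as well (50.2% higher and 35.2% lower), so at this depth it separates a ratio from counting error and not from the variation between cultures, which was not measured. Signs were also read under 6 other scalings of the libraries. Gfpt1, Pgm3, Uap1, Uap1l1 and Hcfc1 kept their sign under all 6, whereas Ogt, Mgea5, Gfpt2, Gnpnat1 and Nagk did not. With FPKM, the deposited values scaled to transcript length and library total, the median of the 9094 genes itself moved from 0.08 to -0.06, a shift that applies to every FPKM ratio below.

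**Figure D1:**
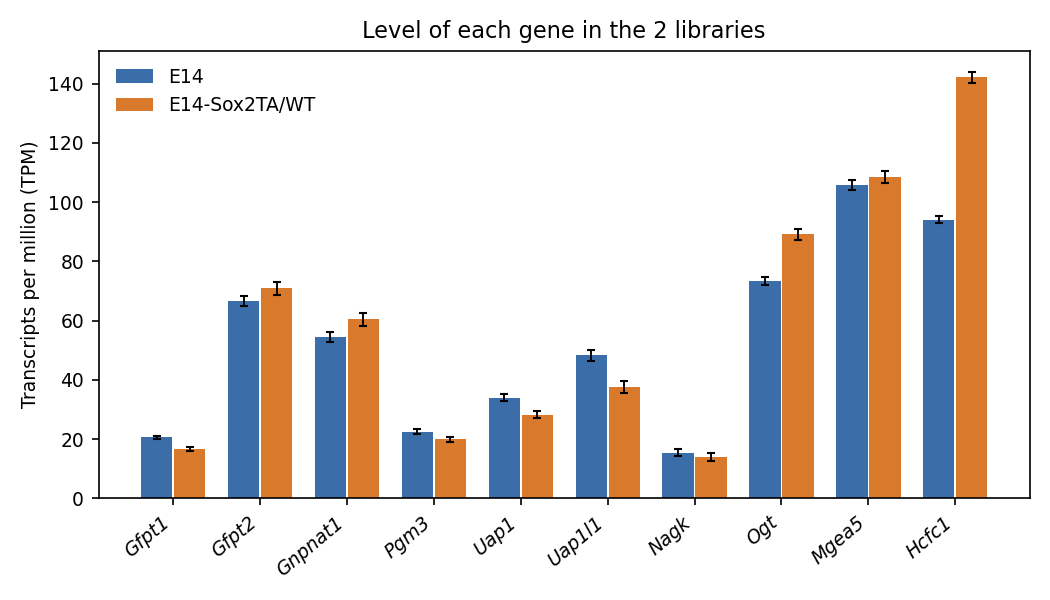
TPM of each of the 10 genes in E14 (blue bars) and E14-Sox2TA/WT cells (orange bars), 1 library each, with error bars for the exact Poisson 95% counting interval. Hcfc1 has the widest gap between the bars (94.0 and 142), and those of Mgea5 (105.7 and 108.4) are nearly level.

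In E14 cells Mgea5 was highest (TPM 105.7), followed by Hcfc1 (94.0), Ogt (73.3), Gfpt2 (66.6), Gnpnat1 (54.5), Uap1l1 (48.3), Uap1 (34.0), Pgm3 (22.5), Gfpt1 (20.6) and Nagk (15.4). In E14-Sox2TA/WT cells the order was the same except that Hcfc1 stood above Mgea5. Counting intervals of neighbours in the order did not overlap in either library, and no spread over cultures is known. By TPM, Mgea5 ranked 1569th of the 17645 genes with reads in E14 and 1644th of 16764 in E14-Sox2TA/WT cells, while Nagk ranked 7241st and 7700th.

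The pathway opens with the glutamine fructose phosphate transaminases Gfpt1 and Gfpt2, whose step is known to limit the flux into UDP-GlcNAc. Gfpt1 (Entrez gene 14583, chromosome 6, 87042846 to 87092207, 19 exons) had 4049 reads and a TPM of 20.6 in E14, and 2199 reads and a TPM of 16.7 in E14-Sox2TA/WT cells. Its log2 ratio was -0.30 (-0.38 to -0.23), and 21.2% of the 9094 genes had a lower one. After removal of the trend of ratios with GC content and length the value was -0.67, so that its size, though not its sign, depended on this step.

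Gfpt2 (Entrez gene 14584, chromosome 11, 49794155 to 49838620, 19 exons) went the other way by a small margin, from a TPM of 66.6 (6264 reads) to 70.9 (4466 reads). The log2 ratio of 0.09 (0.03 to 0.15) lay close to the median of all genes past the filter and turned to -0.05 with FPKM. Gfpt2 was the more abundant transcript of this step in both libraries. The TPM of Gfpt1 over that of Gfpt2 was 0.309 (0.297 to 0.321) in E14 and 0.235 (0.223 to 0.248) in E14-Sox2TA/WT cells. Such a ratio inside a library is free of the scaling between libraries, and its log2 change was -0.39 (-0.49 to -0.30), or -0.71 without the GC and length trend. The summed TPM of both genes was level, at 87.2 in E14 and 87.5 in E14-Sox2TA/WT cells. Unlike the ratio, the sum depends on the scaling between libraries, and its log2 change was -0.14 with FPKM.

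The next enzymes acetylate glucosamine phosphate (Gnpnat1) and move the phosphate from one carbon of the sugar to another (Pgm3). Gnpnat1 (Entrez gene 54342, chromosome 14, 45376421 to 45388987, 6 exons) had 4353 reads and a TPM of 54.5 in E14, and 3232 reads and a TPM of 60.4 in E14-Sox2TA/WT cells. Its log2 ratio was 0.15 (0.08 to 0.21), which turned to -0.13 with the trend removed. Pgm3 (Entrez gene 109785, chromosome 9, 86552476 to 86571878, 13 exons) had a TPM of 22.5 (3247 reads) and 19.9 (1926 reads), for a log2 ratio of -0.18 (-0.26 to -0.09), or -0.44 with the trend removed.

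Gnpnat1, Pgm3 and Mgea5 overlap a neighbour on the opposite strand. The handling of strand in the counting is not given in the sources used here, so the reads of these genes are uncertain. In the GENCODE transcript of Gnpnat1, 88.5% of the 50-base words also occurred in transcripts of other genes, most of them in the antisense gene Styx, which had 1470 and 1135 reads (log2 ratio 0.20). For Pgm3 the share was 37.4%, all of it with the antisense gene Dop1a, listed as Dopey1 with 1228 and 1053 reads (0.36). The share was 10.1% for Mgea5, with the antisense gene Gm15491, which had no row under that name in the gene table, and 0 for the other 7 genes.

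The final step, the joining of GlcNAc phosphate to uridine phosphate, is made by Uap1, and Uap1l1 is its paralog. Uap1 (Entrez gene 107652, chromosome 1, 170141223 to 170174964, 10 exons) had 3286 reads and a TPM of 34.0 in E14, and 1832 reads and a TPM of 28.3 in E14-Sox2TA/WT cells. Its log2 ratio was -0.27 (-0.35 to -0.18). Uap1l1 (Entrez gene 227620, chromosome 2, 25361489 to 25365682, 9 exons) had a TPM of 48.3 (2574 reads) and 37.6 (1342 reads). Its log2 ratio of -0.36 (-0.46 to -0.27) was the lowest of the 10 genes by TPM, and 17.9% of the 9094 genes had a lower one. With the trend removed it was -0.16, and Gfpt1, Pgm3, Uap1 and Mgea5 were lower.

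Uap1 and Uap1l1 were lower by a similar margin. Their TPM ratio was 0.703 (0.667 to 0.740) in E14 and 0.751 (0.700 to 0.807) in E14-Sox2TA/WT cells, and the interval of its log2 change (0.10, -0.03 to 0.22) included no change. The sign of that change turned with the trend removed (-0.14). The summed TPM of the pair was 82.3 in E14 and 65.9 in E14-Sox2TA/WT cells (log2 ratio -0.32), where that of Gfpt1 and Gfpt2 was level (0.01). With FPKM these log2 ratios were -0.47 and -0.14.

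Nagk phosphorylates GlcNAc recovered from degraded glycans and thereby feeds it back into the pathway. Nagk (Entrez gene 56174, chromosome 6, 83794983 to 83802556, 10 exons) was the least abundant of the 10 genes, with 643 reads and a TPM of 15.4 in E14 and 391 reads and a TPM of 13.9 in E14-Sox2TA/WT cells. The interval of its log2 ratio (-0.14, -0.33 to 0.04) included no change, and the ratio was 0.15 with the trend removed. A difference was therefore not detectable at this depth, up to the bounds of the interval.

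**Figure D2:**
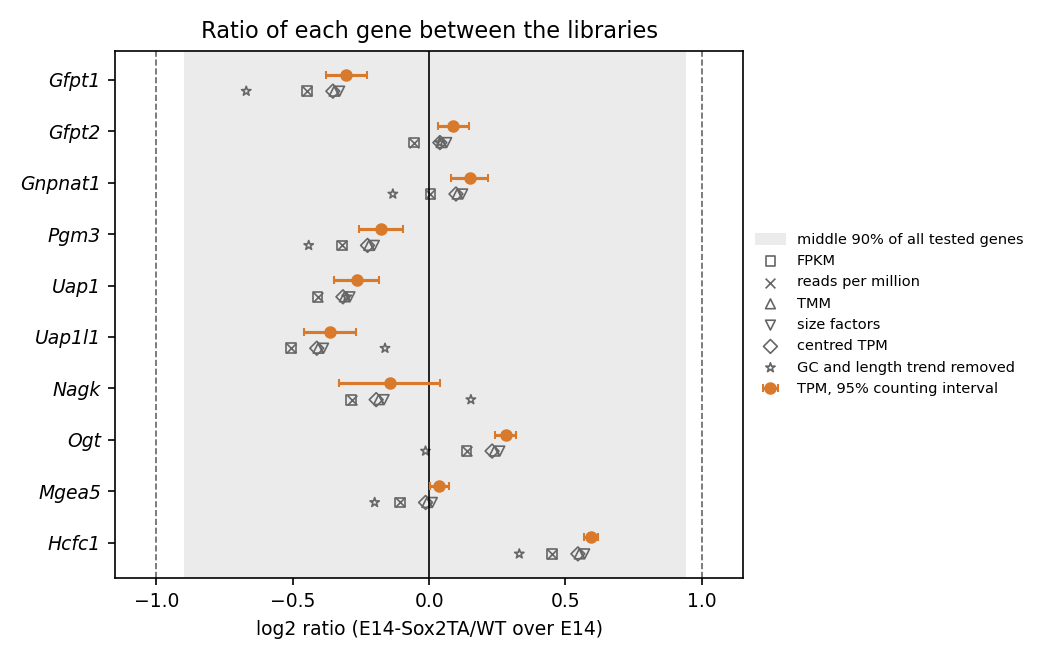
Log2 ratio of each gene, E14-Sox2TA/WT over E14, from TPM (orange points with 95% counting intervals) and under 6 other scalings (grey symbols); the dashed lines mark 2-fold and the grey band holds the middle 90% of the 9094 genes past the filter. All symbols lie between the dashed lines, Hcfc1 lies right of 0 and Gfpt1, Pgm3, Uap1 and Uap1l1 lie left of 0 under every scaling.

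Ogt, the enzyme that attaches O-GlcNAc, lies on chromosome X (Entrez gene 108155, 101640011 to 101684351, 22 exons). It had 12107 reads and a TPM of 73.3 in E14, and 9879 reads and a TPM of 89.1 in E14-Sox2TA/WT cells. The TPM was 1.21 times as high in E14-Sox2TA/WT cells (log2 ratio 0.28, 0.24 to 0.32), and 66.8% of the 9094 genes had a lower ratio. Once the trend with GC content and length was taken out the log2 ratio was -0.01, and with FPKM it was 0.14, so its size depends on the scaling and its sign rests on leaving that trend in.

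Mgea5, the gene for Oga, lies on chromosome 19 (Entrez gene 76055, 45750255 to 45783644, 16 exons). It had 15967 reads and a TPM of 105.7 in E14, and 10976 reads and a TPM of 108.4 in E14-Sox2TA/WT cells. Its log2 ratio was 0.04 (0.002 to 0.07), and the sign turned under 5 of the 6 scalings, down to -0.20 with the trend removed.

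Set against each other inside a library, the transcripts of the enzymes that add and remove the sugar were closer in E14-Sox2TA/WT cells. The TPM of Ogt over that of Mgea5 was 0.694 (0.678 to 0.711) in E14 and 0.822 (0.800 to 0.844) in E14-Sox2TA/WT cells, and Mgea5 was the more abundant transcript in both. The log2 change of this ratio was 0.24 (0.192 to 0.30), and it carries the strand uncertainty of the Mgea5 reads given above. With the GC and length trend removed it was 0.186, just below that interval. Read counts in place of TPM gave 0.25, which is close by construction because gene length cancels in such a change. In other terms Ogt made up 41.0% (40.4% to 41.5%) of their summed TPM in E14 and 45.1% (44.4% to 45.8%) in E14-Sox2TA/WT cells.

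**Figure D3:**
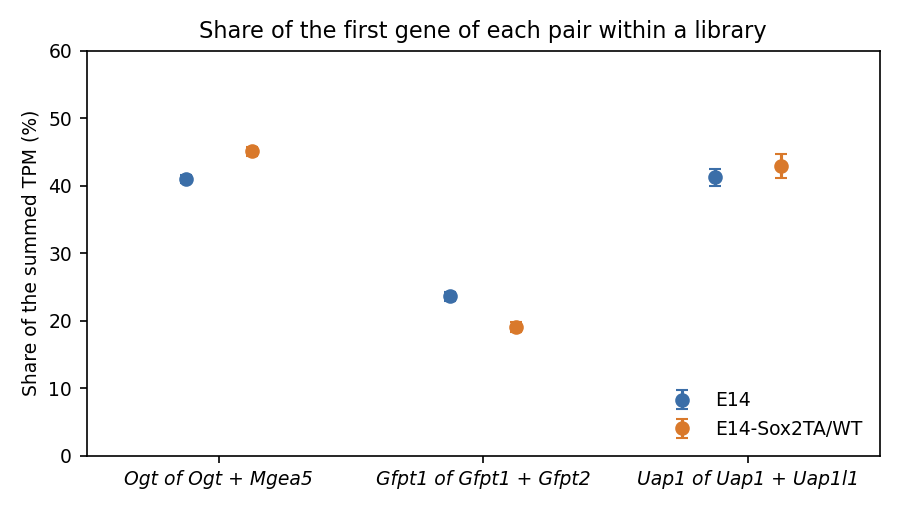
Share of the first gene of each pair in the summed TPM of the pair, in percent, in E14 (blue) and E14-Sox2TA/WT cells (orange), with 95% counting intervals. The Ogt share is 41.0% and 45.1%, the Gfpt1 share 23.6% and 19.0%, and the intervals of the Uap1 share (41.3% and 42.9%) overlap.

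Hcfc1 encodes host cell factor, a chromatin-bound coregulator that binds Ogt and is cleaved by it. It lies on chromosome X (Entrez gene 15161, 73942792 to 73966995, 26 exons) and by TPM had the log2 ratio of largest size among the 10 genes. With the trend removed Gfpt1 (-0.67) and Pgm3 (-0.44) were larger in size than Hcfc1 (0.33). Its reads numbered 24106 in E14 and 24406 in E14-Sox2TA/WT cells although the second library was the smaller, and its TPM was 94.0 and 142. The TPM was 1.51 times as high (log2 ratio 0.60, 0.57 to 0.62), and 86.2% of the 9094 genes had a lower ratio. The ratio ran from 0.33, with the GC and length trend removed, to 0.57 under the 6 scalings. Ogt and Hcfc1 are the genes of the 10 that lie on chromosome X, and the 291 X-linked genes past the filter had a median log2 ratio of 0.18 beside 0.08 for all 9094. The part of the chromosome in their ratios was not tested.

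The genes around the pathway were read from 11 lists with 101 genes, of which 100 had a row in the table and 87 passed the TPM filter. Of the 87, 2 were more than 2-fold higher (Tet1 and Myc) and 4 more than 2-fold lower (Slc1a5, Acss2, Hk1 and Atf4) in E14-Sox2TA/WT cells, or 6.90% together, beside 8.24% of the 9094 genes. Tet1, at 1.01, was short of 2-fold under all 6 other scalings. List medians are over genes whose TPM averaged at least 1 between the libraries, and all 13269 such genes of the table had a median of 0.04, with 7053 higher and 6216 lower.

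Inputs of the hexosamine pathway were split. Of 18 genes, 3 were more than 2-fold lower and 0 more than 2-fold higher, beside 4.07% and 4.17% of the 9094 genes. By TPM 12 were higher and 6 lower, beside 7053 higher and 6216 lower of all 13269 genes, and the median was 0.27. The level of the glutamine transporter gene Slc1a5 was 117.8 in E14 and 50.1 in E14-Sox2TA/WT cells (log2 ratio -1.23). Acss2, which makes acetyl-CoA from acetate, stood at 24.3 and 10.8 (-1.17). The hexokinase gene Hk1 stood at 57.8 and 28.3 (-1.03), and its interval (-1.10 to -0.96) reached inside 2-fold. Other genes with these functions were higher by TPM. The hexokinase gene Hk2 stood at 97.8 and 155.6 (0.67), and Acly, which also makes acetyl-CoA, at 191.3 and 287.1 (0.59). The glutamine transporter gene Slc38a2 stood at 146.7 and 177.7 (0.28, or -0.03 with the trend removed). With the trend removed Slc1a5 was at -0.99, just short of 2-fold. At the other end Glul, which makes glutamine, had a TPM of 109.6 and 218.0 (0.99), under 2-fold here and at 1.03 with the trend removed.

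Of the genes for GlcNAc salvage and hexosamine breakdown, 9 of 12 passed the filter. None of the 9 passed 2-fold, beside 8.24% of the 9094 genes. The list had a median of -0.22, which was negative under all 6 scalings (-0.36 to -0.05). By TPM 8 were lower and 4 higher, beside 6216 lower and 7053 higher of all 13269 genes. With the trend removed Amdhd2 (0.23) and Naglu (0.10) turned higher, and with FPKM Gnpda1 (-0.10) turned lower. The lowest member of the list was Ctbs, a lysosomal enzyme that trims chitobiose (TPM 8.57 and 4.29, a ratio of 0.501), which had a TPM under 10 in both libraries. The highest was Gnpda2, which converts glucosamine phosphate back to fructose phosphate (TPM 14.2 and 22.1, 0.64).

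The lists on other routes from UDP-GlcNAc, not all of whose genes act on it directly, held no gene past both the filter and 2-fold. Of the 9094 genes past the filter, 8.24% were past 2-fold. The transporters that carry UDP-GlcNAc into the Golgi and endoplasmic reticulum had a median of 0.12 over 4 genes, from Slc35d1 (-0.13) to Slc35b4 (0.59). Sialic acid synthesis genes had a median of 0.19 over 5 genes, from Gne (-0.67), which takes UDP-GlcNAc as its substrate, to Slc35a1 (0.37). Genes of the start of N-glycans and of GlcNAc branching had a median of 0.23 over 9 genes, from Mgat5 (-0.32) to Alg13 (0.68), and Alg13 lies on chromosome X as well. The GPI-GlcNAc transferase genes had a median of 0.08 over 6 genes, from Pigp (-0.66) to Dpm2 (0.33). Other GlcNAc transferases and hyaluronan synthases had a median of 0.47 over 8 genes, from Gcnt1 (-0.60) to the hyaluronan synthase gene Has2, whose TPM of 1.85 and 7.59 (2.03) was under 10 in both libraries. Of these lists, the medians of the transporters and of the GPI genes turned negative under at least 1 scaling.

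Chromatin partners of Ogt were mostly higher by TPM, with 14 of 17 above no change, beside 7053 of all 13269 genes. With FPKM, Kansl3 (-0.09), Kat8 (-0.05) and Wdr5 (-0.13) of the 14 turned lower. The median of the list was 0.46 (0.28 to 0.46 under the 6 scalings). Tet1, the methylcytosine dioxygenase most abundant in ESCs, had a TPM of 70.1 in E14 and 141.7 in E14-Sox2TA/WT cells and was just past 2-fold (1.01, 0.99 to 1.04), and it was at 0.50 without the GC and length trend. The lowest of the list was Mcrs1 (-0.29). Hcfc1 cofactors and relatives had a median of 0.09 over 10 genes, from the Hcfc1 paralog Hcfc2 (TPM 12.1 and 6.12, -0.98) to the histone methyltransferase gene Setd1a (0.67). None of the 10 passed 2-fold by TPM, beside 8.24% of the 9094 genes. With FPKM, Hcfc2 was at -1.12. The median of this list turned negative with FPKM (-0.06).

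Pluripotency factors known to carry O-GlcNAc stayed within 2-fold. Sox2 had a TPM of 372.5 and 274.2 (log2 ratio -0.44), Pou5f1 of 1725 and 1759 (0.03) and Esrrb of 289.6 and 310.6 (0.10), and the signs of Pou5f1 and Esrrb turned under at least 1 scaling. Of 6 regulators known for hexosamine enzyme genes, Atf4, a stress-response factor, had a level of 748 in E14 and 279 in E14-Sox2TA/WT cells (-1.42). Myc had levels of 27.1 and 101.9 (1.91), and the other 4 stayed within 2-fold. Of the 9094 genes, 8.24% were past 2-fold. The list median was -0.17.

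**Figure D4:**
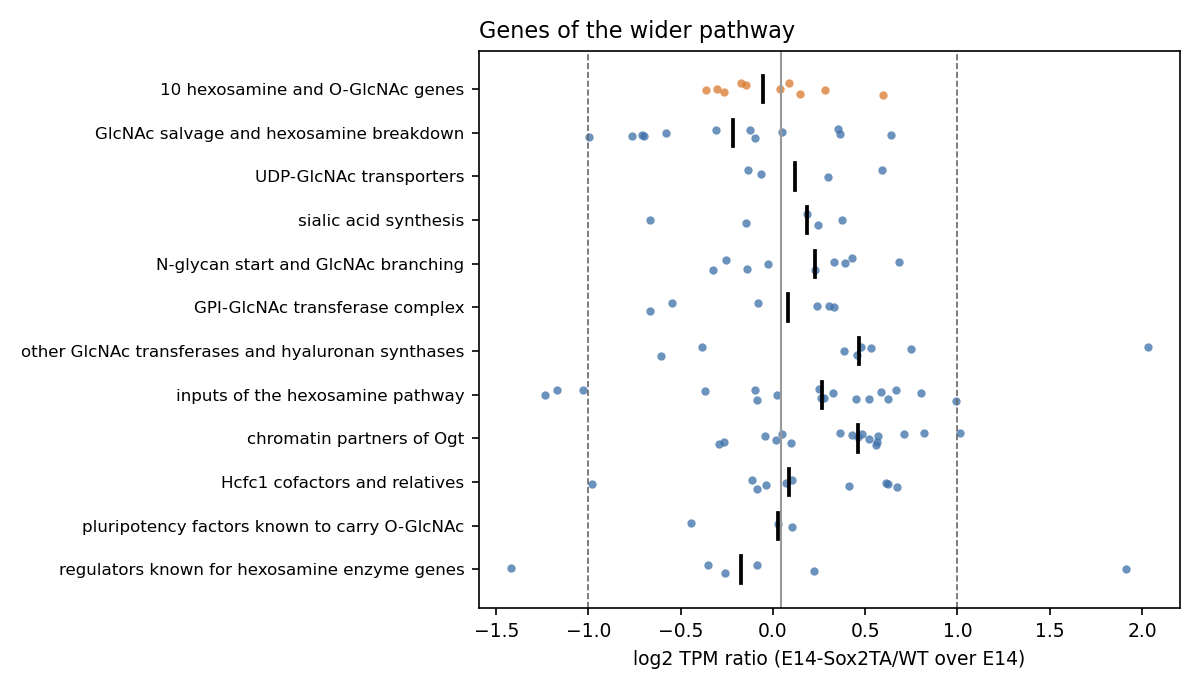
Log2 TPM ratio, E14-Sox2TA/WT over E14, of the 10 hexosamine and O-GlcNAc genes (orange) and of the genes of each list whose TPM averaged at least 1 (blue), 1 point per gene with the median as a black bar, the median of all 13269 such genes as a grey line and 2-fold as dashed lines. All 10 orange points lie within 2-fold, and single genes such as Atf4 (-1.42), Myc (1.91) and Has2 (2.03) lie outside it.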

How the data were processed

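Per the labels, polyadenylated RNA was measured in 1 library per genotype. The study's methods name an Illumina NovaSeq instrument. The submitters' processing notes name bcl2fastq 2.20.0, Trimmomatic, HISAT2 2.1.0 and StringTie 2.1.3b, without their roles, and list both mm10 and hg19. The deposited read counts are whole numbers without normalization. The FPKM deposited by the authors is scaled to transcript length and library total, and the TPM deposited by the authors sums to 993247 in E14 and 994155 in E14-Sox2TA/WT cells.

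The members and lists were chosen with earlier results of these data known. Following the study's thresholds, TPM ratios were formed as deposited, with no pseudocount, for the genes reaching a TPM of 10 in either library, and a threshold of 2-fold was set. The genes past it here, 379 higher and 370 lower, differ in number from those the study reported, and the cause was not tested. Clopper-Pearson (ratios), Poisson (levels) and log-normal (changes of a ratio) 95% intervals cover counting error only. The 6 scalings were FPKM, reads over the library total (CPM), TMM (edgeR 4.0.16), size factors (DESeq2 1.42.0), TPM centred on its median, and TPM with bin medians on GC content and length (20 bins each) removed while the overall median was kept. GC content came from GENCODE transcripts of GRCm38 and covered 99.3% of the genes past the filter. Genes named were the 10 members, Sox2, the pluripotency factors, and in each list those past both thresholds as well as the highest and the lowest ratio. Some others were named because their sign turned or because they share a function with a named gene. The interval of a ratio, the 2-fold call and the trend removal were run on simulated Poisson counts (scipy 1.17.1). Those counts hold no PCR copies and no variation between cultures, so they say nothing about either. Protein sequences were not used here.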

Additional observations from a re-analysis of the deposited data

How the results depend on the processing

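The count of 0 of the 10 genes past 2-fold was the same under the 6 scalings. It was also 0 with pseudocounts of 0.1 and 1, no TPM filter and filters at 1 and 20. Those settings could not have raised it, because a pseudocount shrinks ratios and all 10 genes reached a TPM of 10 in both libraries. At 1.5-fold the count was 1 gene by TPM, Hcfc1, with a ratio of 1.51. Hcfc1 was short of 1.5-fold under all 6 scalings, and Gfpt1 (-0.67) was past it without the GC and length trend. The median log2 ratio of the 10 genes (-0.05) was -0.20 with FPKM, -0.20 with CPM and -0.15 with the GC and length trend removed, and it stayed negative and between the medians of the genes' interval bounds (-0.13 to 0.06) under the other alternatives. The cause was not tested, but FPKM and CPM also moved the median of all genes past the filter, by construction of the scaling, from 0.08 to -0.06. Single ratios left their counting intervals for 9 of 10 genes with FPKM and with CPM, 3 with TMM, 3 with centring, 0 with size factors and 8 with the trend removed. Changes of the ratios within a library were nearly the same with read counts, by construction, because gene length cancels in them. With the trend removed, an alternative chosen after seeing the data, they were 0.19 for Ogt to Mgea5, -0.71 for Gfpt1 to Gfpt2 and -0.14 for Uap1 to Uap1l1; the cause was not tested. No paired analysis was possible because each genotype had 1 library. Depth limits Nagk most, with 391 reads in E14-Sox2TA/WT cells.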
